A study of Mus musculus with 4 samples.

Results

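The transcripts of 9 liver-enriched transcription factors were followed in the liver mRNA of F1 hybrid mice. These were Hnf4a, Foxa1, Foxa2, Foxa3, Cebpa, Cebpb, Onecut1, Prox1 and Cux2, chosen by gene name from the tables of the 4 mice, and all 9 were among the 8797 genes listed there. The mice were females of 5 months from reciprocal crosses of the inbred strains B6 and MSM. In 2 of them the mother was MSM and the father B6 (MSM-mother mice), and in the 2 others the mother was B6 and the father MSM (B6-mother mice). Each mouse therefore carries 1 chromosome set of each strain, and the crosses differ in which parent gave which set. The authors deposited the expression of each gene as FPKM, which is the number of mapped fragments scaled to transcript length and to the fragments mapped in the library. Every listed gene had a mean FPKM above 1. Shares of all genes given below are therefore shares of the listed genes, without genes of lower level. They also deposited a B6-allele frequency, the fraction of reads assignable to a strain that carry the B6 allele. The frequency was given for 6 of the 9 factors, Hnf4a, Foxa2, Cebpa, Cebpb, Prox1 and Cux2, against 41.3% of all genes. It was missing for Foxa1, Foxa3 and Onecut1. Read counts were not given, so the depth behind a value is unknown, and the spread between mice was the only measure of error.

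Hepatocyte identity is held by a network of factors that bind the regulatory regions of one another and of the genes for plasma proteins, bile acid enzymes and glucose metabolism. HNF4A is a nuclear receptor, FOXA proteins are forkhead factors that open chromatin, C/EBP proteins are leucine zipper factors, and ONECUT1 (also known as HNF6), CUX2 and PROX1 are homeodomain proteins. CEBPA is linked to the quiescent, metabolically active hepatocyte, CEBPB to the acute phase response and regeneration, and CUX2 to the female pattern of liver gene expression in mice.

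The values of the 4 libraries were close to one another. The correlation of log2(FPKM + 1) over genes, which are not replicates, was 0.961 to 0.978 for pairs of mice, and the median FPKM lay between 11.2 and 11.7. The summed FPKM was highest in replicate 1 of the MSM-mother mice, at 671875 against 529024 to 572780 in the other mice, and in that mouse the gene Mir3470a was listed at 47024.5 FPKM. The tissue label was checked with markers. Of 8 hepatocyte markers, 6 were listed (Ttr, Apoa1, Apob, Cps1, Serpina1a and Fgb) and their summed FPKM was 19648 and 19647 in the MSM-mother mice and 15792 and 19675 in the B6-mother mice. Alb and Tf were not listed. Of the lymphocyte, neutrophil, kidney and pancreas markers used, only Cela1 of pancreas was listed. A marker that was not listed is not shown to be silent, as the hepatocyte markers Alb and Tf were missing too. In bulk liver, fewer cells of a type and less RNA per cell cannot be told apart.

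The promoters of Cebpb and Hnf4a, the 2 factors called for unequal use of their alleles, are shown here as the reference (B6) sequence, from RefSeq on GRCm38.p6 (mm10), on the + strand and 5′ to 3′, with each CG in capitals. The 250 bases before Cebpb (chr2:167688665-167688914) held 41 CG and were 81.6% G or C. The 250 bases before the RefSeq start sites of Hnf4a held 3 CG and were 51.2% G or C at the first (chr2:163506607-163506856) and held 4 CG and were 57.6% G or C at the second (chr2:163546905-163547154). Over the 250 bases before the start site in 32851 RefSeq promoter windows the median was 6 CG and 52.4% G or C, so Cebpb lay far above the median in both and Hnf4a near it. A high CG number was not particular to Cebpb among the factors. Of the Cux2 windows, 1 held 40 CG and was 80.0% G or C, and the other held 3 CG and was 55.2% G or C. The Onecut1 window held 31 CG. A link between CG number and allele use was not tested. Of the first Hnf4a window only the 201 bases before the GENCODE start of the gene (chr2:163506607-163506807), with 1 CG, are printed.
Cebpb: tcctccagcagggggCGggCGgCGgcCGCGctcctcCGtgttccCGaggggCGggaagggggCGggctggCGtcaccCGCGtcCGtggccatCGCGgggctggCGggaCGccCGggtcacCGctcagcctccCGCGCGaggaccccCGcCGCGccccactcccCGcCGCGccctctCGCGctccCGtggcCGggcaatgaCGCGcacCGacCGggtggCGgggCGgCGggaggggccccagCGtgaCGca
Hnf4a: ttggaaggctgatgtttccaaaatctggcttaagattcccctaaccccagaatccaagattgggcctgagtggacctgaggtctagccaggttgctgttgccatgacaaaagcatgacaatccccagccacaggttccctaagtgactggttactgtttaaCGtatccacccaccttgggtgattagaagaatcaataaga

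The windows of the 9 factors, 14 in all, ran from 250 bases before to 50 after a RefSeq start site and were searched on both strands. The letters searched were those known for factors of the hepatocyte network, the E-box CACGTG and TATAAA. The ONECUT letters ATCAATA were found in 2 of the 14 windows, of Hnf4a and Foxa2, and in 2.05% of all windows. Each of the following was found in 1 of the 14. The forkhead letters TGTTTAC were found for Foxa1 (3.65% of all windows) and TGTTTGC for Prox1 (5.07%). The letters ATCGAT, bound by ONECUT and CUX proteins, were found for Cux2 (0.925% of all windows), where they overlap a TATAAA, and the E-box CACGTG was found for Onecut1 (7.15%). The stretches of 30 bases around 3 of these matches are printed on the strand of each gene with the matching letters in capitals. They lie at chr2:163506787-163506816 (+) for Hnf4a, chr2:148047165-148047194 (-) for Foxa2 and chr12:57546234-57546263 (-) for Foxa1.
Hnf4a: tgattagaagaATCAATAagataaccgggc
Foxa2: acaaggcccatTATTGATtttttttctcct
Foxa1: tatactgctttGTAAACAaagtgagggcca
The Hnf4a match reads in the direction of the gene and starts 59 bases before the first RefSeq start site, at position 163506857, which lies downstream of the GENCODE start at 163506808, while those of Foxa2 and Foxa1 lie on the opposite strand, 214 and 141 bases before RefSeq start sites of these genes. TATAAA was found in 6 of the 14 windows, each of another factor, and in 13.6% of all windows. That of Cebpa lay 30 bases and that of Foxa3 36 bases before the start site, at chr7:35119251-35119280 (+) and chr7:19023558-19023587 (-), and that of Cebpb 21 bases after it.
Cebpa: tgcccgaccctcTATAAAagcggtccccgc
Foxa3: gggtgtcccggcTATAAAaagtggctgcct
No window of a factor held the C/EBP letters TTGCNNAA (10.8% of all windows) or the HNF4 letters CAAAGTCCA (0.475%) and CAAAGGTCA (0.478%). These are matches of letters in a window, and binding was not measured. None of these windows was compared between B6 and MSM.

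The factors fell into an abundant pair and a group of much lower level. FPKM is scaled to length, so the levels of different genes can be set side by side. Cebpa and Hnf4a had the highest FPKM, Cebpb, Foxa3, Prox1, Foxa2 and Cux2 lay between 11 and 29 FPKM on average, and Onecut1 and Foxa1 were the lowest. The highest mean was 38.9 times the lowest.

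**Figure D1:**
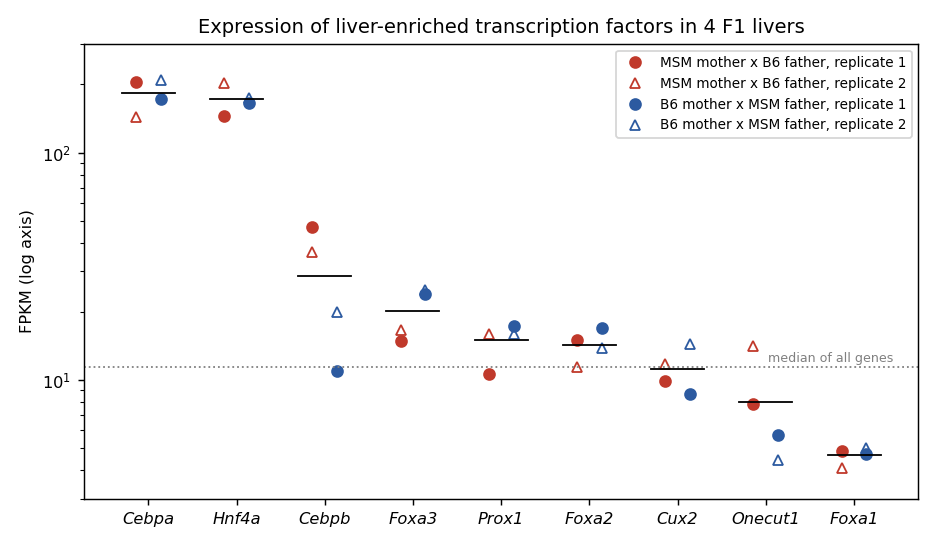
FPKM (log axis) of the 9 factors in each of the 4 mice, with the crosses in colors, the replicates as filled circles and open triangles, a black bar for the mean of the 4 mice and a dotted line at the median of all genes (11.5 FPKM). Cebpa and Hnf4a stand above all others in every mouse, and the crosses lie apart for Cebpb, Foxa3, Onecut1 and, narrowly, Prox1.

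Cebpa (chr7:35119293-35121928, + strand of mm10, GENCODE M21) had an FPKM of 204 and 143 in the MSM-mother mice (replicate 1, then 2) and 172 and 209 in the B6-mother mice (same order throughout). Hnf4a (chr2:163506808-163572910, +) had 144 and 203 in the MSM-mother mice and 166 and 173 in the B6-mother mice. Their means of 182 ± 30.6 and 172 ± 24.3 FPKM (SD, n = 4 mice) were higher than those of 93.9% and 93.5% of all genes. The order of the pair held in 3 of 4 mice and their ranges overlapped, so the levels of these factors could not be separated. The ratio of Hnf4a to Cebpa was 0.707 and 1.42 in the MSM-mother mice and 0.961 and 0.831 in the B6-mother mice.

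Cebpb (chr2:167688915-167690418, +) followed at 28.6 ± 16.1 FPKM (SD, n = 4 mice), a level 6.01 times below that of Hnf4a. This was the only step between neighbors in the order, 1 of 8, at which the ranges over the mice did not overlap. Foxa3 (chr7:19013284-19023538, -), at 20.1 ± 5.02 FPKM, lay below Cebpb in 2 of 4 mice. Prox1 (chr1:190118035-190170714, -), at 14.9 ± 2.92 FPKM, lay below Foxa3 in 4 of 4 mice, although the ranges overlapped. Foxa2 (chr2:148042877-148046969, -) had 14.3 ± 2.30 FPKM and Cux2 (chr5:121856366-122050102, -) 11.2 ± 2.49 FPKM, with Foxa2 above Cux2 in 2 of 4 mice. Onecut1 (chr9:74861921-74891781, +) had 8.04 ± 4.30 FPKM, below Cux2 in 3 of 4 mice. Foxa1 (chr12:57540628-57546916, -), at 4.67 ± 0.391 FPKM, exceeded 19.6% of the listed genes, which leave out genes of very low level. It lay below Onecut1 in 3 of 4 mice. From Cebpb to Foxa1, each factor thus overlapped with the next one.

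The factors also differed in how far the mice lay apart. The highest mouse exceeded the lowest by 4.26 times for Cebpb and by 3.18 times for Onecut1. For Foxa3, Cux2 and Prox1 the factor was 1.67, 1.66 and 1.62, and for Foxa2, Cebpa and Hnf4a 1.48, 1.46 and 1.41. Foxa1, the least abundant, varied least, by 1.22 times. The SD of log2(FPKM + 1) over the 4 mice was 0.89 for Cebpb and 0.64 for Onecut1, larger than in 99.01% and 98.3% of all genes. For Foxa1 it was 0.10, larger than in 27.7%. The median SD was 0.29 over the 9 factors and 0.15 over all genes.

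The FOXA proteins share the forkhead domain and can bind the same sites, so the share of each gene in their summed FPKM was compared. Foxa3 made up 42.8% and 51.8% of the sum in the MSM-mother mice and 52.4% and 56.9% in the B6-mother mice. Foxa2 made up 43.2% and 35.4% in the MSM-mother mice and 37.2% and 31.7% in the B6-mother mice. Foxa1 contributed 13.9% and 12.8% in the MSM-mother mice and 10.4% and 11.4% in the B6-mother mice. Foxa1 was thus the smallest share in every mouse, and the ranges of Foxa2 and Foxa3 overlapped. The summed FPKM was 34.8 and 32.2 in the MSM-mother mice and 45.4 and 43.8 in the B6-mother mice, without overlap between the crosses. Of the single genes only Foxa3 lacked overlap, while Foxa1 and Foxa2 overlapped. Single genes lacked overlap in 42.4% of all genes, and in this direction in 19.4%. The ratio of Foxa3 to Foxa2 was 0.991 and 1.46 in the MSM-mother mice and 1.41 and 1.80 in the B6-mother mice.

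Cebpb and Onecut1 had higher FPKM in the 2 MSM-mother mice, and Foxa3 and Prox1 in the 2 B6-mother mice, without overlap between the crosses. For Cebpb the FPKM was 46.8 and 36.5 in the MSM-mother mice and 10.99 and 19.9 in the B6-mother mice. For Onecut1 it was 7.84 and 14.1 in the MSM-mother mice and 5.74 and 4.45 in the B6-mother mice. Non-overlap was common, however, and was found in 4 of the 9 factors and in 42.4% of all genes. Higher FPKM in both MSM-mother mice was seen in 2 of 9 factors and 23.0% of genes, and higher FPKM in both B6-mother mice in 2 of 9 factors and 19.4% of genes. With 2 mice against 2, an exact permutation test cannot go below p = 0.333, the value for each of the 4 factors (two-sided). The crosses were therefore also compared with limma, a linear model that shares information on the spread across genes, on log2(FPKM + 1) and with Benjamini-Hochberg adjustment over all 8797 genes.

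None of the 9 factors (0) passed an adjusted p of 0.05 in limma, as against 4 of all genes (0.0455%). At an unadjusted p under 0.05, 3 of the 9 factors differed, Cebpb, Foxa3 and Onecut1, beside 8.87% of all genes. Differences are given as MSM mother minus B6 mother on the log2(FPKM + 1) scale, which understates the change of genes of low level. Over all genes the median difference was 0.02 with 5th and 95th percentiles of -0.35 and 0.41, and over the 9 factors the median was -0.10.

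Cebpb showed the largest difference of the factors. Its mean FPKM was 41.7 in the MSM-mother mice and 15.5 in the B6-mother mice, a ratio of 2.69, and the log2 difference was 1.42 (SE 0.28, 95% CI 0.72 to 2.11, limma adjusted p = 0.340). The ratio of Cebpa to Cebpb within a mouse, which does not depend on the scaling of a library, was 4.35 and 3.91 in the MSM-mother mice and 15.7 and 10.5 in the B6-mother mice. Cebpa itself overlapped between the crosses, with a log2 difference of -0.15 (95% CI -0.70 to 0.40, limma adjusted p = 0.829) that turned to 0.10 without replicate 2 of the MSM-mother mice. CEBPB is also known from macrophages, so the markers of Kupffer cells are given here. Of 8 such markers 6 were listed (Clec4f, Vsig4, Cd5l, Csf1r, Cd68 and Lyz2). Their summed FPKM was 162 and 143 in the MSM-mother mice and 200 and 196 in the B6-mother mice. This is the opposite direction to Cebpb, and the part of these cells in the values of Cebpb was not tested. Adgre1 and Marco were not listed. Of 8 markers of stellate cells 4 were listed (Dcn, Rgs5, Reln and Hgf). Their summed FPKM was 107 and 92.0 in the MSM-mother mice and 78.7 and 89.4 in the B6-mother mice, the direction of Cebpb, and its part in the values of Cebpb was not tested.

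**Figure D2:**
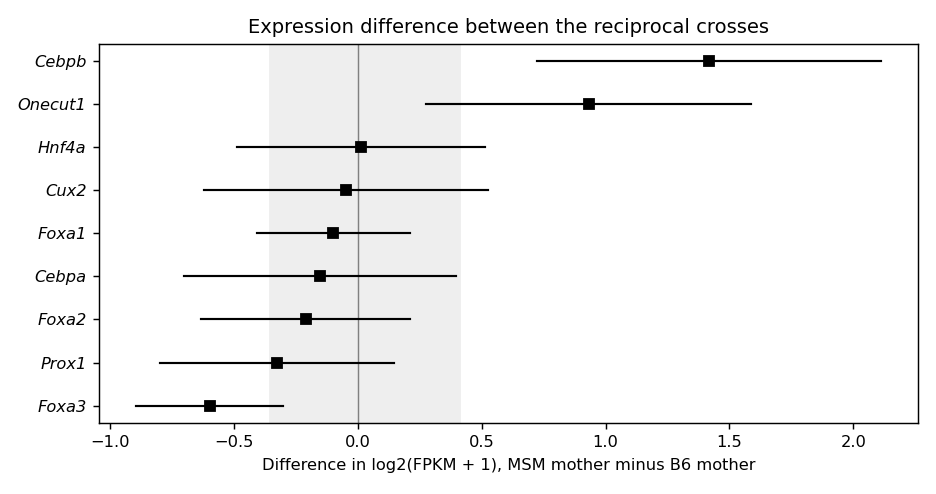
Difference in log2(FPKM + 1) between the crosses for the 9 factors, MSM mother minus B6 mother (squares, with bars for the 95% CI from limma; 2 mice per cross), on a gray band from the 5th to the 95th percentile of all genes (-0.35 to 0.41). The squares of Cebpb, at 1.42, and Onecut1, at 0.93, lie to the right of the band and that of Foxa3, at -0.60, to its left.

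Onecut1, which encodes HNF6, had a mean FPKM of 10.99 in the MSM-mother mice and 5.10 in the B6-mother mice, a ratio of 2.16. The log2 difference was 0.93 (SE 0.27, 95% CI 0.28 to 1.59, limma adjusted p = 0.459). Replicate 2 of the MSM-mother mice, at 14.1 FPKM, was the farthest from the others, and without it the log2 difference was 0.54. Its relative Onecut2 had a mean FPKM of 8.37 in the MSM-mother mice and 8.34 in the B6-mother mice (log2 difference 0.00, 95% CI -0.36 to 0.37, limma adjusted p = 0.998).

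Of the FOXA genes, Foxa3 had no overlap between the crosses. Its FPKM was 14.9 and 16.6 in the MSM-mother mice and 23.8 and 24.9 in the B6-mother mice. The mean in the B6-mother mice was 1.54 times that of the MSM-mother mice, and the log2 difference was -0.60 (SE 0.12, 95% CI -0.89 to -0.30, limma adjusted p = 0.340). The MSM-mother mice both lay below the B6-mother mice. Foxa2 had an FPKM of 15.1 and 11.4 in the MSM-mother mice and 16.9 and 13.9 in the B6-mother mice, and Foxa1 had 4.85 and 4.12 against 4.71 and 5.01. Both overlapped between the crosses, with log2 differences of -0.21 (95% CI -0.63 to 0.21, limma adjusted p = 0.694) for Foxa2 and -0.10 (95% CI -0.41 to 0.21, limma adjusted p = 0.803) for Foxa1. With each mouse left out in turn, these ranged from -0.40 to -0.02 for Foxa2 and from -0.19 to -0.0011 for Foxa1, the first value without replicate 1 and the last without replicate 2 of the MSM-mother mice.

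Prox1, which encodes a partner that represses HNF4A targets and is also known from lymphatic endothelium, had an FPKM of 10.7 and 15.87 in the MSM-mother mice and 17.3 and 15.91 in the B6-mother mice. The crosses were separated only by the small gap between 15.87 and 15.91. The log2 difference was -0.33 (SE 0.19, 95% CI -0.80 to 0.15, limma adjusted p = 0.625). Without replicate 1 of the MSM-mother mice it was -0.06, and without replicate 2 of that cross it was -0.59. All 8 markers of liver endothelium were listed (Pecam1, Kdr, Stab2, Lyve1, Clec4g, Cdh5, Eng and Flt4). Their summed FPKM was 145 and 143 in the MSM-mother mice and 168 and 165 in the B6-mother mice, the same direction as Prox1 and Foxa3, and its part in their values was not tested.

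Cux2 had an FPKM of 9.87 and 11.8 in the MSM-mother mice and 8.65 and 14.4 in the B6-mother mice. The crosses overlapped, with the highest and the lowest mouse both having a B6 mother, and the log2 difference was -0.05 (95% CI -0.62 to 0.53, limma adjusted p = 0.957). For Hnf4a the log2 difference was 0.01 (95% CI -0.49 to 0.51, limma adjusted p = 0.991), and its sign turned when the libraries were set to the same FPKM sum (-0.12), to the same median log2 ratio (-0.0053) or to the same quantiles (-0.09). Setting the same FPKM sum moved the median of all genes to -0.10. On that scale the log2 differences of Cebpb, Onecut1, Foxa3 and Prox1 were 1.32, 0.86, -0.73 and -0.46, in the same directions as before. Without replicate 1 of the MSM-mother mice, the library with the highest FPKM sum, those of Cebpb, Onecut1 and Foxa3 were 1.24, 1.32 and -0.52.

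Other genes of the same network were described by lists. Of 47 further hepatocyte transcription factors 41 were listed, of which Creb3l3, Atf5 and Mlxipl had the highest mean FPKM, at 203, 114 and 107. In limma, 0 of the 41 passed the adjusted threshold for a difference between the crosses and 6 had an unadjusted p under 0.05. 8 were higher in both MSM-mother mice and 9 in both B6-mother mice, and the median log2 difference was -0.01. Of all genes, 8.87% had such a p, 23.0% were higher in both MSM-mother mice and 19.4% in both B6-mother mice. Cebpd, a C/EBP factor of the acute phase response, was singled out after its values were seen. Its mean FPKM was 4.11 in the MSM-mother mice and 1.44 in the B6-mother mice (log2 difference 1.10, limma adjusted p = 0.347), the direction of Cebpb. Of 18 coregulators 14 were listed, with 0 at an unadjusted p under 0.05. Of the 14, 0 were higher in both MSM-mother mice and 3 in both B6-mother mice, and the median log2 difference was -0.12. Hdac3, Tle1 and Ncor1, all corepressors, had the highest mean FPKM, at 17.4, 14.5 and 13.9.

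Of 34 textbook target genes of the 9 factors, 32 were listed, led by the apolipoprotein genes Apoa2, Apoa1 and Apoc3 at 17842, 6313 and 5605 FPKM. None of the 32 (0) passed the adjusted limma threshold, and 5 had an unadjusted p under 0.05, beside 8.87% of all genes. 15 were higher in both MSM-mother mice (23.0% of all genes) and 3 in both B6-mother mice (19.4%). The median log2 difference was 0.18, or 0.02 over all genes. These counts are on the deposited scale, and setting the same FPKM sum moved the median of all genes to -0.10. The same shares of all genes apply to the lists below. As CUX2 is tied to sex-biased expression, sex-biased genes were listed too. All 27 female-biased genes besides Cux2 were listed, with the cytochrome P450 genes Cyp3a41a, Cyp3a41b and Cyp2a4 at 1120, 1005 and 972 FPKM, and so were 19 of 24 male-biased genes, with Cyp2f2, Gstp1 and Ugt2b1 at 936, 260 and 172 FPKM. Many of these belong to families of near-identical copies, so their values are uncertain. Between the crosses 0 of the 27 and 0 of the 19 passed the adjusted limma threshold, 7 and 4 had an unadjusted p under 0.05, 3 and 4 were higher in both MSM-mother mice, 6 and 1 in both B6-mother mice, and the median log2 differences were -0.00 and 0.08.

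Cebpb was transcribed mainly from the B6 allele in every mouse, and Hnf4a slightly more from B6 than from MSM. Prox1, Foxa2 and Cux2 lay near equal use, and Cebpa was too variable to be placed. The frequencies were compared with 0.5 in limma on the log2 odds, that is, log2 of B6 over MSM, as the mean of both crosses and with adjustment over the 3632 genes that have a frequency. Of the 6 factors 2 were called toward B6 and 0 toward MSM at an adjusted p under 0.05, and of all genes 22.6% toward B6 and 13.6% toward MSM. The median frequency was 0.530 over the 6 factors and 0.510 over all genes.

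**Figure D3:**
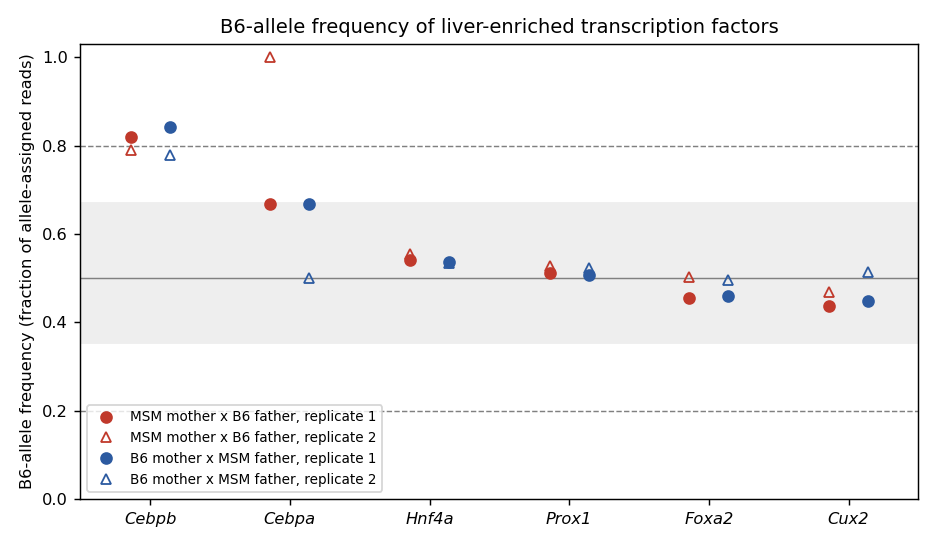
B6-allele frequency (fraction of allele-assigned reads) of the 6 factors in each of the 4 mice, with a solid line at equal use (0.5), dashed lines at 0.8 and 0.2, and a gray band from the 5th to the 95th percentile of the mean frequency of all genes (0.353 to 0.671). All 4 mice lie between 0.779 and 0.843 for Cebpb and between 0.535 and 0.555 for Hnf4a, while those of Cebpa are spread from 0.5 to 1.

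For Cebpb the B6-allele frequency was 0.819 and 0.790 in the MSM-mother mice and 0.843 and 0.779 in the B6-mother mice. The mean of 0.808 ± 0.0287 (SD, n = 4 mice) is a ratio of B6 to MSM of 4.203, and the log2 odds was 2.08 (SE 0.13, 95% CI 1.68 to 2.49, limma adjusted p = 0.0054). The mean was higher than in 98.2% of the genes with a frequency. It was past 0.8, the study's threshold for a B6-biased gene, which 1 of the 6 factors and 1.84% of genes reached, and single mice lay on both sides of it. The threshold of 0.2 for an MSM-biased gene was reached by 0 of the 6 factors and 1.35% of genes. In every mouse Cebpb had a higher frequency than Hnf4a, Prox1, Foxa2 and Cux2.

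The B6 allele of Cebpb predominated whichever parent it came from, with a mean frequency of 0.804 in the MSM-mother mice and 0.811 in the B6-mother mice. The difference in log2 odds between the crosses was -0.08 (95% CI -0.89 to 0.73, limma adjusted p = 0.980). Dividing each FPKM by the frequency, as FPKM times the frequency for the B6 allele and the rest for the MSM allele, gave 38.3 and 28.8 FPKM for the B6 allele in the MSM-mother mice and 9.27 and 15.5 in the B6-mother mice. The MSM allele had 8.50 and 7.66 FPKM in the MSM-mother mice and 1.73 and 4.40 in the B6-mother mice. Both allele values lay higher in the MSM-mother mice, by 2.71 times for B6 and 2.64 times for MSM. They are parts of the same FPKM, so with like frequencies in the crosses they follow its ratio and are no separate result. The lowest B6 value exceeded the highest MSM value.

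**Figure D4:**
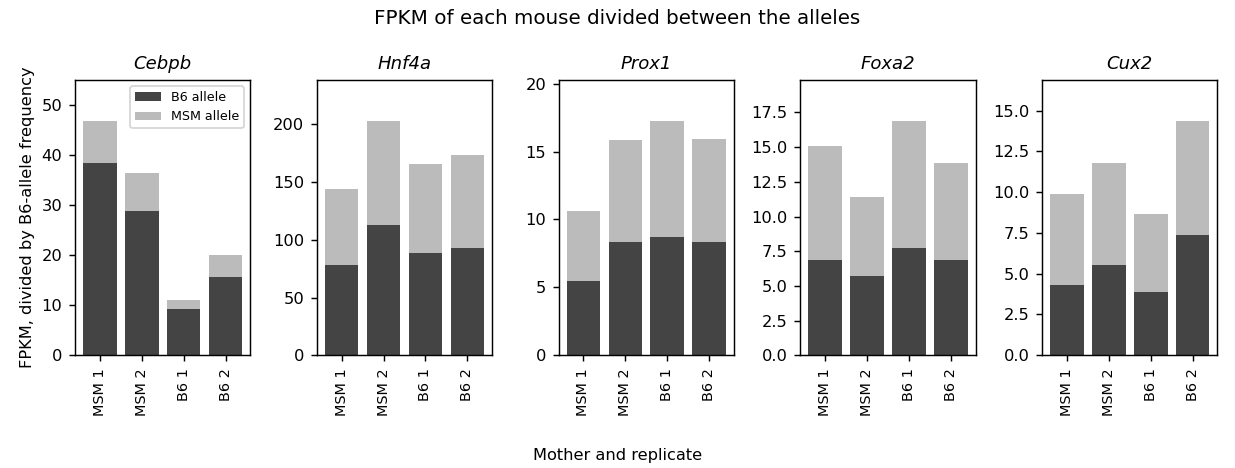
FPKM of each mouse divided between the B6 allele (dark) and the MSM allele (light) by the B6-allele frequency, for the 5 factors beyond 100 Mb, with 1 bar per mouse named by the strain of the mother and the replicate and a separate axis for each gene. The dark part makes up most of every Cebpb bar, and both parts of the Cebpb bars are higher in the MSM-mother mice, as the whole bars are.

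Part of Cebpb overlaps a gene on the other strand. Tmem189 (chr2:167642608-167689822, -) covers 908 bases of Cebpb, by an exon of a noncoding transcript of Tmem189, and whether strand was used in counting is not given in the sources used here. The frequency of Tmem189 was 0.420 and 0.460 in the MSM-mother mice and 0.393 and 0.354 in the B6-mother mice. All mice lay on the MSM side of 0.5, the opposite side to Cebpb, with a log2 odds of -0.55 (limma adjusted p = 0.0191). The mean FPKM of Tmem189 was 10.3 ± 2.36 (SD, n = 4 mice). It had 12.7 and 10.7 FPKM in the MSM-mother mice and 7.07 and 10.6 in the B6-mother mice, the direction of Cebpb. The crosses did not overlap, as in 42.4% of all genes, and the log2 difference was 0.39 (limma adjusted p = 0.592). The part of Tmem189 in the values of Cebpb was not tested. Within 200 kb of Cebpb, 4 genes had a frequency, Tmem189 included. Their mean frequencies were 0.407 to 0.568, and 0 of the 4 reached 0.8. Of the 4, 1 lay above 0.5 in all mice and 2 below it, beside 33.9% and 22.8% of all genes with a frequency.

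The B6-allele frequency of Hnf4a was 0.542 and 0.555 in the MSM-mother mice and 0.536 and 0.535 in the B6-mother mice. The values were tightly grouped, at 0.542 ± 0.0092 (SD, n = 4 mice), a ratio of B6 to MSM of 1.18. The log2 odds was 0.24 (SE 0.04, 95% CI 0.11 to 0.37, limma adjusted p = 0.0300), against a median of 0.06 over all genes, and 70.3% of genes had a lower mean frequency. The call was lost when each mouse was shifted to a median log2 odds of 0 (limma adjusted p = 0.0555) and when any 1 mouse was left out (limma adjusted p of 0.0952 to 0.142). Divided by allele, the FPKM was 78.1 and 113 for B6 and 66.0 and 90.3 for MSM in the MSM-mother mice, and 88.8 and 92.8 for B6 and 77.0 and 80.6 for MSM in the B6-mother mice.

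Hnf4a was the only one of the 6 factors whose frequencies did not overlap between the crosses, with both MSM-mother mice above both B6-mother mice. Such a lack of overlap was seen in 34.3% of all genes with a frequency, and in this direction in 18.4%. The difference in log2 odds was 0.08 (95% CI -0.18 to 0.34, limma adjusted p = 0.932). The antisense gene Hnf4aos (chr2:163493807-163541720, -) overlaps Hnf4a over 34913 bases. Its frequency was 0.691 and 0.657 in the MSM-mother mice and 0.614 and 0.724 in the B6-mother mice, farther toward B6 than Hnf4a in every mouse, with a log2 odds of 1.04 (limma adjusted p = 0.0206). Its FPKM was 5.40 and 5.27 in the MSM-mother mice and 2.93 and 3.40 in the B6-mother mice, a low level beside that of Hnf4a. If strand was not used in counting, reads of Hnf4a and Hnf4aos cannot be told apart. The nearest gene on the other side, Ttpal, 29.4 kb away, had a mean frequency of 0.620 ± 0.0376 (SD, n = 4 mice). Of 6 genes with a frequency within 200 kb of Hnf4a, Hnf4aos included, the means ran from 0.446 to 0.672. Of the 6, 3 lay above 0.5 in all mice and 0 below it, beside 33.9% and 22.8% of all genes with a frequency.

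The frequency of Prox1 was 0.512 and 0.528 in the MSM-mother mice and 0.506 and 0.523 in the B6-mother mice. All mice lay above 0.5, which held for 3 of the 6 factors and 33.9% of genes (0 of 6 and 22.8% lay below 0.5 in all mice), but the log2 odds of 0.10 (95% CI -0.04 to 0.24, limma adjusted p = 0.195) was not past the threshold. Its nearest gene with a frequency, Smyd2, 196 kb away, lay below 0.5 at 0.436 ± 0.0158 (SD, n = 4 mice).

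The frequency of Foxa2 was 0.454 and 0.503 in the MSM-mother mice and 0.460 and 0.496 in the B6-mother mice, on both sides of 0.5. The log2 odds was -0.13 (95% CI -0.36 to 0.11, limma adjusted p = 0.289). For Cux2 the frequency was 0.437 and 0.468 in the MSM-mother mice and 0.449 and 0.514 in the B6-mother mice, also on both sides, and the log2 odds was -0.19 (95% CI -0.46 to 0.08, limma adjusted p = 0.189). Fam109a, 1.76 kb from Cux2, lay below 0.5 in all mice at 0.441 ± 0.0183 (SD, n = 4 mice). Of the 5 genes with a frequency within 200 kb of Cux2 the means ran from 0.259 to 0.593, and no gene within 200 kb of Foxa2 had a frequency.

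Cebpa had a frequency of 0.667 and 1 in the MSM-mother mice and 0.667 and 0.5 in the B6-mother mice. The mean was 0.708 ± 0.210 (SD, n = 4 mice), with a log2 odds of 2.16 (95% CI -1.18 to 5.499, limma adjusted p = 0.217). Without replicate 1 of the MSM-mother mice the log2 odds was 3.56. That fit leaves 1 mouse in this cross, whose frequency of 1 was limited to 0.99. The log2 odds of all 4 mice also depended on the limit. It was 1.56 with limits of 0.05 and 0.95, and 2.99 with limits wider than those used. Position bears on which frequencies are given. Beyond 100 Mb on chromosomes 1 to 15 and X, or 10 Mb on chromosomes 16 to 19, 89.8% of genes had a frequency, and before these coordinates 1.98%. All 5 factors beyond them, Hnf4a, Foxa2, Cebpb, Prox1 and Cux2, had a frequency, and Cebpa was the only one of the 4 others that had one. The cause of this pattern was not tested, and no read number is known for Cebpa.

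Between the reciprocal crosses, 0 of the 6 factors differed in frequency at an adjusted p under 0.05 in limma, and 0 at an unadjusted p under 0.05, where 0.0826% and 5.23% of all genes did. Besides Cebpb and Hnf4a, the differences in log2 odds, MSM mother minus B6 mother, were 0.01 for Foxa2 (95% CI -0.47 to 0.48), 0.03 for Prox1 (95% CI -0.26 to 0.32) and -0.17 for Cux2 (95% CI -0.71 to 0.38). For Cebpa the interval was too wide to place the difference of 3.31 (95% CI -3.37 to 9.998).

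Of the 41 further hepatocyte factors listed, 16 had a frequency, of which 4 were called toward B6 and 3 toward MSM, with a median of 0.514. Of all genes with a frequency, 22.6% were called toward B6 and 13.6% toward MSM. The same shares stand beside the counts of each list below. Among the called ones, the farthest from equal use were Hhex, a homeobox gene of liver development, at 0.203 ± 0.0385 (log2 odds -1.99, limma adjusted p = 0.0060), Cux1, the relative of Cux2, at 0.679 ± 0.0241 (1.08, 0.0067) and Tcf7l2, an effector of Wnt signaling, at 0.602 ± 0.0111 (0.60, 0.0078; SD, n = 4 mice for each). Among the target genes 25 had a frequency, 5 were called toward B6 and 4 toward MSM, with a median of 0.515. The cadherin gene Cdh1 had a frequency of 0.927 ± 0.0246, the bile acid enzyme gene Cyp8b1 0.199 ± 0.0519 and the fibrinogen gene Fgb 0.311 ± 0.0975 (SD, n = 4 mice), all with a limma adjusted p under 0.05. Of these 25 genes 11 lie before the coordinates at which frequencies become common, Fgb among them, and as for Cebpa no read number is known for their frequencies. Of 12 female-biased genes with a frequency 2 were called toward B6 and 4 toward MSM, of 11 male-biased genes 4 and 3, and of 6 coregulators 0 and 0. The called genes farthest from equal use were Cyp4a14 at 0.992 ± 0.00334, Cyp3a41a at 0.0648 ± 0.0167 and Cyp17a1 at 0.882 ± 0.0284 among the female-biased genes and Cyp4a12b at 0.00912 ± 0.00368, Susd4 at 0.0978 ± 0.0277 and Cyp4a12a at 0.106 ± 0.0540 among the male-biased ones (SD, n = 4 mice), and for the members of near-identical families in these lists the frequencies are uncertain as well.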

How the data were processed

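Poly(A) RNA from liver of 4 female F1 mice, 2 per reciprocal cross, was sequenced by the authors with a strand-keeping kit, and mice were grouped by the parents in the sample labels. Trim Galore was used by the authors for trimming and TopHat2 for alignment to mm10 in which SNP positions were masked, with a strand setting for the library, and the authors deposited FPKM per gene. For the deposited fraction, the B6-allele frequency, the authors split reads by allele with SNPsplit, counted them per gene with Cuffdiff and divided B6 reads by the sum of both alleles. Versions of these tools are not given in the sources used here. With at most one alignment kept per read, reads of near-identical copies cannot be told apart. No counts are given, so no counting interval was computed.

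All fits used the whole table. Expression was tested with limma 3.58.1 (R 4.3.3) with a variance trend on log2(FPKM + 1), where the minimum mean FPKM was 1 (all 8797 genes passed). Frequencies were limited to 0.01 to 0.99 and tested as log2 odds in 1 limma model with the cross coded around 0. The two-sided tests used a Benjamini-Hochberg adjusted p of 0.05 as threshold and were tested on simulated data. Labels do not say whether replicates of a cross share a litter, so p-values measure the spread between these mice. The limma tests draw that spread in part from all genes. Positions came from GENCODE M21 and promoters from RefSeq (GRCm38.p6), and all 9 factors matched both. Python 3.11.15, numpy 2.4.6, pandas 2.3.3, scipy 1.17.1 and matplotlib 3.10.9 were used.

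The 9 factors, the gene lists and the marker lists were chosen with earlier results of these data known. All 9 factors are named, and of each list the called genes (the 3 with the largest effect if over 5) and the 3 of highest level. The lists of hepatocyte markers overlap with the target genes. Of the neighbors with a frequency within 200 kb, the nearest on either side is named. Other pseudocounts, filters, scalings, limits, thresholds, blocking by replicate number and leaving out single mice were tried. Deviations of mice with equal replicate numbers correlated with r = 0.00375 (FPKM) and 0.146 (log2 odds), and no label ties equal numbers to a litter or day. A comparison of the proteins was planned and was not run. The marker list of bile duct cells is not reported here.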

Additional observations from a re-analysis of the deposited data

How the results depend on the processing

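For the 9 factors, 21 values were recomputed in 237 settings. Direction and side of the threshold held in 211, 6 lost the threshold, 4 gained it and 16 turned direction. With the replicate number as a block, which the labels do not tie to a shared litter or day, 3 factors instead of 0 differed in expression between the crosses in limma (adjusted p = 4.37e-07 for Cebpb, 0.000149 for Onecut1 and 0.0450 for Foxa3), while all genes gave 285 instead of 4 calls. This fit has 3 terms for 4 mice, so these p-values rest largely on the spread that limma shares across genes. They say little about the spread of the factor itself. The block left 1 instead of 2 factors with allelic imbalance (Hnf4a lost, limma adjusted p = 0.0821), and 775 instead of 1316 of all genes. Setting the same FPKM sum gave 20 calls in expression over all genes. A shift of each mouse to a median log2 odds of 0 also left 1 factor with imbalance. Leaving out 1 mouse gave 0 to 0 factors in expression (13 to 23 of all genes), 1 to 2 in imbalance (181 to 514 of all genes) and 0 to 0 in frequency between the crosses (0 to 6 of all genes, 1 with limits closer to 0 and 1, instead of 3). The loss of Hnf4a beside 181 to 514 calls came with fewer mice, and the cause of the other changes was not tested. Cebpb stayed called for imbalance in all 11 alternatives (limma adjusted p of 0.0021 to 0.0459). With the threshold of 0.8 in every mouse 0 factors passed, and with 0.7 and 0.3, 2 passed, Cebpb and Cebpa, instead of 1. The level order held for 7 to 9 of 9 factors without 1 mouse.

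Values that turned direction were small. For expression, Hnf4a gave -0.12 with the same FPKM sum, -0.0053 with the same median ratio and -0.0906 with quantile normalization, and -0.23 to 0.26 without 1 mouse. Without 1 mouse Cux2 ran from -0.38 to 0.29 and Cebpa from -0.41 to 0.10. For the log2 odds between the crosses, Foxa2 gave -0.0067 with the shift and -0.14 to 0.15 without 1 mouse, Cebpb -0.38 to 0.22, Prox1 -0.017 to 0.0790 and Cux2 -0.35 to 0.0223. Foxa1 was not tested where a mean FPKM of at least 5 was required, nor the frequency of Cebpa in the fit on genes beyond 100 Mb. Since no depth is given, a difference that missed the threshold was not detectable with 2 mice per cross and is not shown to be absent.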
